A study of Mus musculus with 4 samples.

Results

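The 6 genes followed here across the cells of the mouse brain were the glucocorticoid response genes Fkbp5, Tsc22d3, Sgk1 and Per1, and the metallothionein genes Mt1 and Mt2. They were taken by symbol, each as a single entry, from the 55487 genes of the count tables, so 6 of 55487 genes are described, in 4 droplet single-cell RNA libraries with 1 library per group. The groups were WT Cre and EC-K4KO mice, each at a young and an old age. EC-K4KO stands for an endothelial deletion of the transcription factor gene Klf4 by Cre under the promoter of Cdh5, the endothelial cadherin gene, a Cre that is switched on by tamoxifen. The WT Cre controls were littermates with the same Cre, so every group shared the transgene, and mice of both sexes were used in the study. The number of mice behind each library was not given in the sources used here. With 1 library per group, no spread between mice could be measured for any single group.

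Glucocorticoids such as corticosterone enter cells and bind the glucocorticoid receptor, encoded by Nr3c1, which is held ready by HSP90 and its helper proteins and then acts on DNA in the nucleus. FKBP5 is a chaperone partner that lowers the receptor's affinity for hormone and is itself induced by the receptor. TSC22D3, also called GILZ, is an anti-inflammatory leucine zipper protein. SGK1 is a kinase that controls ion channels and transporters, and PER1 is a repressor protein of the circadian clock. Metallothioneins are small cysteine-rich proteins that bind zinc and copper, and their genes are switched on by the metal-sensing factor MTF1 and also by glucocorticoids. Brain endothelial cells form the blood-brain barrier and meet circulating hormone directly.

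By the GENCODE M21 annotation of the GRCm38 genome, Mt2 (ENSMUSG00000031762.7) spans chr8:94172664-94173568 and Mt1 (ENSMUSG00000031765.8) spans chr8:94179082-94180327, both on the plus strand, with 5513 bases between them. Sgk1 (ENSMUSG00000019970.15) spans chr10:21882184-21999903 and Per1 (ENSMUSG00000020893.17) spans chr11:69095217-69109960, both on the plus strand. Fkbp5 (ENSMUSG00000024222.17) spans chr17:28399094-28517527 and Tsc22d3 (ENSMUSG00000031431.13) spans chrX:140539528-140600659, both on the minus strand. The counts were made per whole gene and do not show which exon or which start site a read came from.

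The promoters of the members differed in the short motifs they held. RefSeq gives 14 promoter windows for the 6 members on GRCm38.p6, each of 300 bases with 250 before and 50 after a start site. The motifs searched, on both strands, were the palindromic glucocorticoid response element (AGAACA and TGTTCT with any 3 bases between them), the metal response element TGCACNC or TGCGCNC, and the E-box CACGTG that clock factors bind. The glucocorticoid response element was in 3 of all 32851 windows (0.00913%), and 1 of these 3 was a start site of Sgk1. The metal response element was in 25.7% of all windows, and 4 or more copies were in 0.517%. Mt2 had 4 copies and Mt1 had 3. The E-box was in 7.15% of all windows, and among members it was in windows of Per1, Fkbp5 and Sgk1. None of the 3 motifs was in the 3 windows of Tsc22d3, which says only that these letters were not in those windows. A match describes the sequence and is not evidence of binding, and the window of Sgk1 belongs to only 1 of its start sites. The 4 stretches below are shown because they hold the matches to the motif that each gene's textbook regulator binds, with the matched letters in capitals and all 4 read on the plus strand, which is the strand of each gene.
Sgk1, chr10:21993640-21993889, glucocorticoid response element: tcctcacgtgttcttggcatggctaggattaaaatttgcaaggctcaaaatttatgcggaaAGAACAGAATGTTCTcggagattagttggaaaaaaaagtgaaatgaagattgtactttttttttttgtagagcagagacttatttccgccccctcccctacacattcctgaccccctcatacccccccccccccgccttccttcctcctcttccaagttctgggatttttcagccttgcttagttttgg
Per1, chr11:69098699-69098948, E-box: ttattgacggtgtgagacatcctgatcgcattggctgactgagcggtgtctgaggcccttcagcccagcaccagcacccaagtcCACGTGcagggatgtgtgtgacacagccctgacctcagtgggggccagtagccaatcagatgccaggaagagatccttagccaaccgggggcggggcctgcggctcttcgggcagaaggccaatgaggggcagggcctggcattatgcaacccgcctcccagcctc
Mt1, chr8:94178839-94179088, 1 of its metal response elements: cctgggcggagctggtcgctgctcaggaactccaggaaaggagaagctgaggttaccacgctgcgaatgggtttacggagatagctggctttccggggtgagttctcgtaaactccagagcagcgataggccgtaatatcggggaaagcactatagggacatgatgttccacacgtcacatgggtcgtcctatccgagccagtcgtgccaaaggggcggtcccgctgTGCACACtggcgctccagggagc
Mt2, chr8:94172368-94172617, 3 of its metal response elements: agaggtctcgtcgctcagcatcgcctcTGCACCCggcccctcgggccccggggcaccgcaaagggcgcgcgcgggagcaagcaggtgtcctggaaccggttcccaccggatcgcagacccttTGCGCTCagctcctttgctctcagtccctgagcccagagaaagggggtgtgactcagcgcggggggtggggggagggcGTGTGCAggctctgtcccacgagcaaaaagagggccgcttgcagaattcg

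The 4 libraries held 26422 cell barcodes in all and 30655769 to 88812581 UMIs each, a UMI being a tag that marks 1 captured RNA molecule. After filters on depth, mitochondrial share and doublets, 20737 cells remained, and clusters were given a class name followed by "-like" where their marker genes allowed it, which left 2292 cells (11.05%) unnamed. Pairs of libraries shared 7 to 42 barcode sequences, and among the cells kept they shared 6 to 10. In endothelial-like cells, the level of Klf4 in CPM, its UMIs for each 1000000 UMIs of the class, was 1711 in the WT Cre and 3286 in the EC-K4KO library of the young pair, and 2105 and 3309 in the old pair. Klf4 was thus higher in both libraries labelled EC-K4KO than in their controls, which goes against the labels, although counts per gene cannot show whether the deleted exons were read. The 2 libraries are therefore called the libraries labelled EC-K4KO, and every difference by genotype below is a difference by label.

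Each member had its own order of levels over the cell classes, described in CPM of UMIs summed over the cells of a class in each library, for sums of at least 50 cells. Mt1 was highest in the ependymal-like cells of the only library that had 50 of them, at 17121 CPM, and next in astrocyte-like cells, where the 4 libraries ranged from 9322 to 10591. Smooth muscle-like cells followed, with 2647 to 5681 CPM of Mt1. Endothelial-like cells, with 705 to 1126, overlapped both border macrophage-like cells, with 734 to 1054, and oligodendrocyte-like cells. Microglia-like cells held 268 to 359, and pericyte-like cells 130 to 405.
The Mt2 order had the same top, with 1328 to 2106 CPM in astrocyte-like cells, after which smooth muscle-like cells (90.2 to 329) and endothelial-like cells (106 to 207) overlapped. Microglia-like cells held 12.1 to 20.6 CPM of Mt2. The number of Mt1 UMIs for each Mt2 UMI was 4.23 to 6.84 in endothelial-like and 5.03 to 7.02 in astrocyte-like cells. It was 17.3 to 29.3 in smooth muscle-like and 15.6 to 24.2 in microglia-like cells, so the balance of these neighbouring genes set the first 2 classes apart from the last 2 in all 4 libraries. Not every class fell on 1 side. Pericyte-like cells ran from 5.32 to 19.7, from 3 to 19 Mt2 UMIs per library, and border macrophage-like cells from 11.3 to 25.5.

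Among the glucocorticoid response genes, Tsc22d3 had its highest class median in endothelial-like cells, where it ranged from 304 to 714 CPM and overlapped astrocyte-like cells, with 224 to 425. It was lowest in choroid plexus-like cells, with no more than 7.93 CPM in the 2 libraries that had 50 such cells. Sgk1 was highest in oligodendrocyte-like cells, with 335 to 858 CPM in 3 libraries, and overlapped the endothelial-like range of 303 to 359 and the microglia-like range of 226 to 367. Astrocyte-like cells, which carried the most metallothionein of the classes seen in all 4 libraries, had only 1.91 to 10.7 CPM of Sgk1. Fkbp5 followed another order, with 73.0 CPM in the only library with 50 fibroblast-like cells, 39.3 to 81.4 CPM in microglia-like cells and 27.6 to 52.6 in border macrophage-like cells, against 2.90 to 18.6 in endothelial-like and 0.820 to 3.96 in astrocyte-like cells. Per1 varied least between the vascular classes, with 75.1 to 115 CPM in endothelial-like, 67.3 to 117 in pericyte-like and 71.9 to 91.7 in smooth muscle-like cells, ranges that all overlap. Classes were defined by clustering these same cells, so these orders are descriptions without a test.

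**Figure D1:**
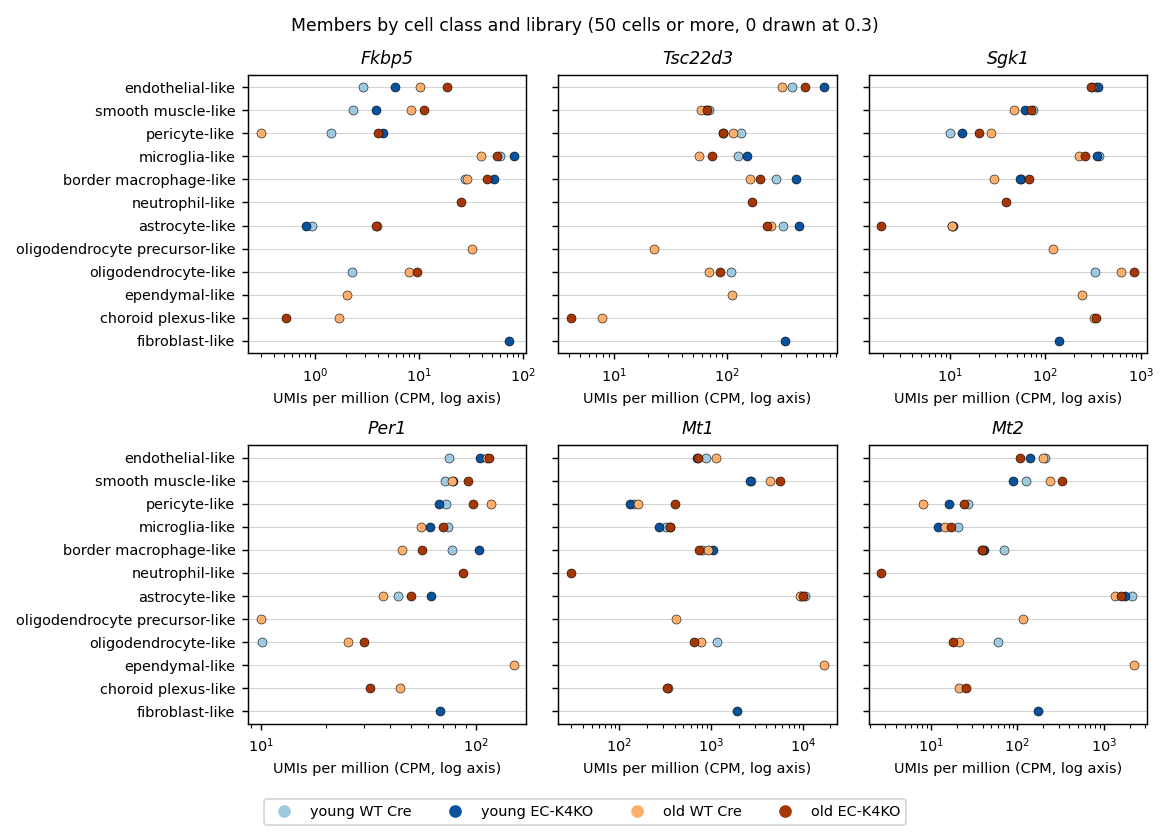
Level of each member (CPM, log axis) in each cell class, with 1 point per library of at least 50 cells of the class. Mt1 and Mt2 lie highest in ependymal-like and astrocyte-like cells, Fkbp5 lies at 39.3 to 81.4 in microglia-like cells, and Sgk1 is at 1.91 to 10.7 in astrocyte-like cells against 303 to 359 in endothelial-like cells.

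The genes whose levels ran most like each member's were found over 33 class and library sums of 12 classes, by Pearson's r of log2(CPM + 1) among the 3548 genes that averaged 50 CPM or more. The sums share libraries and classes, so r is given as a description. Mt1 and Mt2 were each other's nearest gene, with r = 0.92. Next to Mt1 came Pygb (0.83), a brain glycogen phosphorylase, and Cpe (0.83), a prohormone-processing peptidase, and next to Mt2 came Cpe (0.89) and the growth factor receptor gene Fgfr3 (0.86). Fkbp5 ran most like Dennd4a (0.85), Zswim6 (0.83) and Nfkbid (0.83). Tsc22d3 ran most like Dazap2 (0.77), the sphingosine-1-phosphate receptor gene S1pr1 (0.74) and the interferon receptor gene Ifnar1 (0.73). Among the genes most like Sgk1 were Smad7 (0.80), an inhibitor of TGF-beta signalling, and Pkp4 (0.75). Per1 ran most like Gm26532 (0.85), Gcnt2 (0.82) and Itpripl2 (0.81). Apart from Mt1 with Mt2, r between any 2 members lay between -0.34 and 0.41, so the glucocorticoid response genes did not share 1 pattern over the classes.

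Endothelial-like cells were the largest class, with 2736, 3307, 2153 and 1895 cells in the 4 libraries, ordered as WT Cre then EC-K4KO of the young pair and WT Cre then EC-K4KO of the old pair, the order kept for all values below. With the genotype label, 2 members rose and 1 fell. Tsc22d3 measured 373, 714, 304 and 481 CPM, so that at each age the library labelled EC-K4KO was the higher. In the additive edgeR quasi-likelihood model, with age and label as terms over the 4 libraries, Tsc22d3 rose by 0.83 on the log2 scale with the EC-K4KO label (SE 0.095, adjusted p = 0.00614). Mt2 measured 207, 139, 199 and 106 CPM and was the lower in each library labelled EC-K4KO. Mt2 fell by 0.70 on the log2 scale with the label (SE 0.094, edgeR adjusted p = 0.0118).
Fkbp5 measured 2.90, 5.80, 10.2 and 18.6 CPM, from 74, 249, 153 and 198 UMIs, so that at each age the library labelled EC-K4KO was the higher, while the groups by label overlapped because old WT Cre lay above the young library with that label. Its rise with the label was 0.96 on the log2 scale (SE 0.15, edgeR adjusted p = 0.0231). The 3 calls are 3 of 6 members, beside 1.58% of all 14857 genes tested (0.875% higher and 0.7% lower). Mt1 measured 877, 705, 1126 and 728 CPM and was lower in both libraries labelled EC-K4KO, with a log2 change of -0.44 (SE 0.10) that missed the threshold (edgeR adjusted p = 0.0990). Per1 and Sgk1 had log2 changes of 0.29 (adjusted p = 0.329) and 0.07 (adjusted p = 0.850) in the same edgeR fit, and for Sgk1 the 4 values of 337, 359, 308 and 303 CPM gave no order by label.
The Fkbp5 call by label was lost without the venous-like cluster led by Ackr1 (0.80, edgeR adjusted p = 0.110) and in capillary-like clusters alone (0.93, adjusted p = 0.0747), where the Mt1 change passed (-0.40, adjusted p = 0.0490) and 2.34% of genes were called by label. Haemoglobin and erythroid marker UMIs within endothelial-like cells also moved with the label, at 345, 690, 337 and 601 CPM over the whole list, and their part in these results was not tested.

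Taken pair by pair, the ratios of the library labelled EC-K4KO over its control have only counting intervals, which do not cover differences between mice or preparations. In the young pair, the log2 ratio was 0.94 for Tsc22d3 (95% interval 0.90 to 0.97), 0.99 for Fkbp5 (0.62 to 1.40), -0.32 for Mt1 (-0.34 to -0.29) and -0.57 for Mt2 (-0.63 to -0.52). In the old pair it was 0.66 for Tsc22d3 (0.61 to 0.72), 0.86 for Fkbp5 (0.55 to 1.18), -0.63 for Mt1 (-0.67 to -0.59) and -0.90 for Mt2 (-1.001 to -0.80). Both metallothionein ratios lay further below 0 in the old pair, and the Tsc22d3 ratio lay nearer to 0, a contrast between ages that 4 libraries cannot test. For Per1 the young pair gave 0.47 (0.40 to 0.55) and the old pair 0.03 (-0.08 to 0.14). Members past 1.5-fold numbered 2 of 6 in the young pair, beside 3.53% of 10135 genes, and 4 of 6 in the old pair, beside 4% of them.

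**Figure D2:**
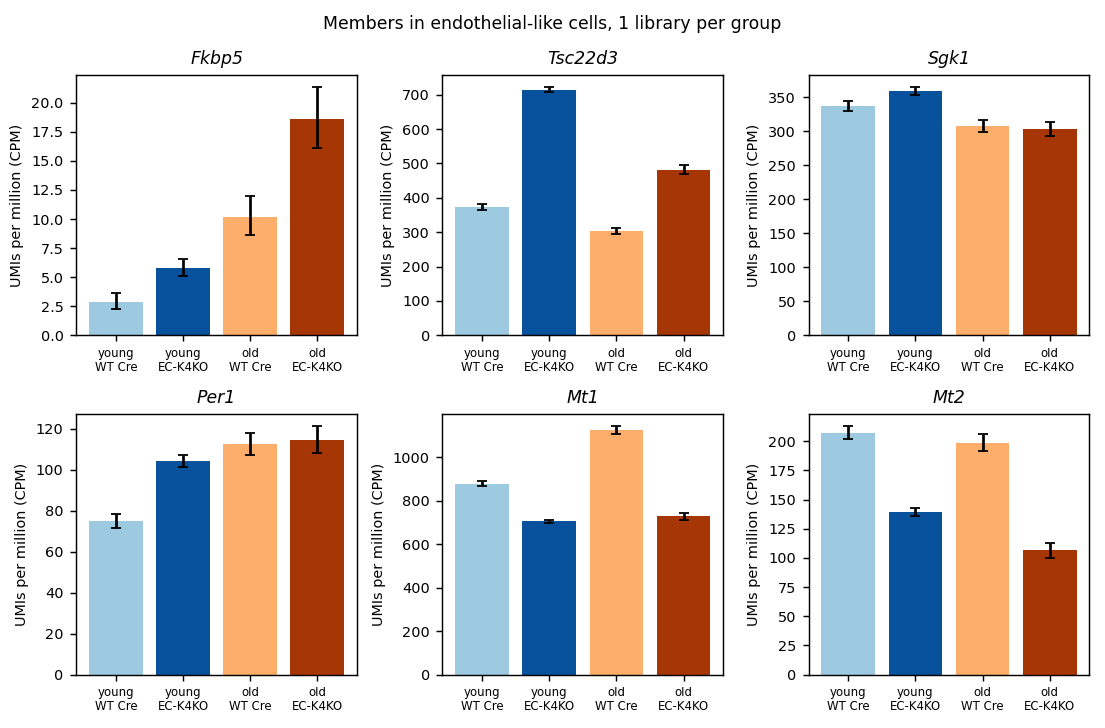
Level of each member in endothelial-like cells (CPM, linear axis from 0), with 1 bar per library and 95% Poisson intervals that cover counting error only. Tsc22d3 is higher and Mt1 and Mt2 are lower in both libraries labelled EC-K4KO than in their WT Cre controls, and Fkbp5 runs from 2.90 to 18.6 in the order of the bars.

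With age, Fkbp5 had the largest change among the members in endothelial-like cells. It rose by 1.88 on the log2 scale in the additive model (SE 0.15, edgeR adjusted p = 1.72e-04). Both old libraries, at 10.2 and 18.6 CPM, were above both young libraries, at 2.90 and 5.80. Per1, at 75.1, 104, 112 and 115 CPM, also rose, by 0.50 (SE 0.11, edgeR adjusted p = 0.0158), although the library labelled young EC-K4KO lay close to the old ones. Mt1 rose by 0.35 with age (SE 0.10, edgeR adjusted p = 0.0489), while its values of 877 and 705 CPM in the young and 1126 and 728 in the old libraries overlapped between ages. With total UMIs in place of TMM factors the Mt1 change was 0.20 and missed the threshold (edgeR adjusted p = 0.113). The 3 calls stand beside 18.2% of genes called with age, 11% higher and 7.18% lower. Tsc22d3 had a log2 change of -0.29 that missed the threshold (edgeR adjusted p = 0.0677). It passed in 3 of 12 fits, with total UMIs (-0.43, edgeR adjusted p = 0.00378), with no filter on low counts (-0.33, adjusted p = 0.00426) and with classes from each cell's own markers (-0.28, adjusted p = 0.0447). Mt2 (-0.07, adjusted p = 0.624) and Sgk1 (-0.04, adjusted p = 0.753) had changes with age that the additive edgeR fit could not tell from 0.
In capillary-like clusters alone, where 15% of genes were called with age, the rise was 1.60 for Fkbp5 (edgeR adjusted p = 4.63e-04), 0.69 for Per1 (adjusted p = 4.32e-04) and 0.63 for Mt1 (adjusted p = 5.53e-04). Not every capillary-like cluster followed these sums. In 1 of the 5, led by Gm9946, Mt1 was lower in the old library of both pairs (928 against 724 CPM in WT Cre and 610 against 331 with the label, young first). In another, led by Cyp2e1, Per1 was lower in the old library of both pairs (45.6 against 39.8 and 48.0 against 40.6). Fkbp5 was above its young value in each old library of all 5, but from 1 to 57 UMIs per cluster and library, and in the largest cluster, led by Hmcn1, the WT Cre values were 1.15 and 1.35 CPM. The share of that cluster, where Per1 is low, was also smaller with age in WT Cre (1070 of 2218 and 458 of 1563 capillary-like cells). The log2 ratio of old over young Fkbp5 was 1.81 (1.41 to 2.24) in the WT Cre pair and 1.68 (1.40 to 1.95) in the pair labelled EC-K4KO. Fkbp5 was the only member past 1.5-fold in either pair, beside 14.2% and 12.7% of genes, and the median log2 ratio of all genes was -0.19 and -0.15, so the ratios of CPM are read against a median below 0. Mt2 had ratios of -0.06 (-0.13 to 0.00) and -0.39 (-0.48 to -0.30) in these pairs.
The old libraries were shallower in this class, with median UMIs per cell of 6311, 9837, 4664 and 3762. The 15 genes of a dissociation response list summed to 14822, 19208, 26164 and 23738 CPM in endothelial-like cells, higher in both old libraries. Choroid plexus markers summed to 66.0, 16.5, 294 and 137 CPM in the class, also higher in both old libraries, and capillary markers to 5551, 5227, 3576 and 3202, lower in both. The part of these lists in the changes of the members with age was not tested.

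To compare shares of cells in which a member was seen across depths, each cell was thinned to 1000 UMIs. Tsc22d3 was seen in 27.5%, 47.4%, 26.7% and 37.1% of endothelial-like cells. The share of the young WT Cre library had an exact Clopper-Pearson interval of 25.8% to 29.2%, and that of the library labelled young EC-K4KO 45.7% to 49.2%, for counting error only. Unthinned, the 4 shares were 75.7%, 92.0%, 65.8% and 77.5%. Mt2 was seen in 17.4%, 10.5%, 15.3% and 8.71% of thinned endothelial-like cells (55.4%, 48.5%, 43.8% and 25.5% unthinned). For Mt1 the shares were 45.4%, 34.5%, 46.9% and 30.3% (81.2%, 76.9%, 73.2% and 51.7% unthinned). The libraries labelled EC-K4KO had the lower Mt1 and Mt2 shares at each age, but for Mt1 these 2 libraries came in the order opposite to their CPM. Fkbp5 was seen in 0.183%, 0.423%, 0.697% and 0.950% of thinned endothelial-like cells, which are 5, 14, 15 and 18 cells, and unthinned in 1.86%, 5.05%, 4.88% and 7.18%. In astrocyte-like cells, where it is low, the thinned Fkbp5 shares were 0%, 0%, 0% and 0.787% (1 of 127 cells), with upper bounds of 1.38% to 4.31%, and unthinned 0.752%, 0.617%, 1.86% and 1.57% at median depths of 3678 to 7641 UMIs. The thinned endothelial-like shares lie within those bounds, while each unthinned one is above the astrocyte-like share of its own library, at unequal depths.
Within single thinned endothelial-like cells, Mt1 and Mt2 counts ran together, with Spearman's rho of 0.24 to 0.29 in the 4 libraries. Every other pair of members had rho between -0.05 and 0.07, and such weak values in sparse counts are no finding.

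The endothelial zones differed in their levels of Fkbp5 and of the metallothioneins. Venous-like cells, 26, 102, 70 and 102 per library, held 32.6, 39.7, 57.8 and 70.2 CPM of Fkbp5, while capillary-like cells held 2.02, 3.59, 5.26 and 10.4 and arterial-like cells 1.37, 2.51, 6.15 and 6.79. The lowest venous-like value was thus above the highest of both other zones in the whole series. Venous-like cells made up 0.950%, 3.08%, 3.25% and 5.38% of endothelial-like cells, yet they carried 37.8%, 46.6%, 50.3% and 58.1% of the Fkbp5 UMIs of that class. The share of venous-like cells therefore moved with age and label in the same order as Fkbp5 itself. Without the Ackr1-led cluster, the change of Fkbp5 with age was still 1.66 (edgeR adjusted p = 3.39e-04). In the venous-like cells the log2 ratio by label was 0.27 (-0.32 to 0.94) for the young pair, which has only 26 control cells, and 0.28 (-0.15 to 0.72) for the old, intervals that include 0.
Mt1 ran from 450, 315, 493 and 217 CPM in arterial-like through 922, 715, 1352 and 958 in capillary-like to 2805, 1925, 1846 and 795 in venous-like cells. The venous-like value was above the capillary-like one in all libraries except the one labelled old EC-K4KO. Mt2 was 78.9, 39.6, 49.4 and 15.6 CPM in arterial-like, 238, 154, 264 and 145 in capillary-like and 414, 321, 287 and 125 in venous-like cells, so arterial-like cells were lowest for both metallothioneins in every library.
Summed over each zone, both metallothioneins were lower by label in all 3 zones at both ages. In the old pair, the log2 ratio of Mt1 was -1.18 (-1.31 to -1.06) in arterial-like, -0.50 (-0.54 to -0.45) in capillary-like and -1.21 (-1.31 to -1.12) in venous-like cells, and for Mt2 it was -1.65 (-2.15 to -1.20), -0.86 (-0.98 to -0.75) and -1.19 (-1.45 to -0.95). Within the zones, both genes were lower by label in each of the 5 capillary-like clusters at both ages. The arterial-like zone was less even. In its larger Gkn3-led cluster the old pair went the other way, with Mt1 at 156 CPM in WT Cre and 193 in the library labelled EC-K4KO and Mt2 at 14.9 and 16.8, and in its smaller Gkn3-led cluster 15 old WT Cre cells held 572 of the zone's 2324 Mt1 UMIs, against 23 of 638 from 3 cells of the library with the label. Tsc22d3 was higher by label in all 3 zones at both ages, with log2 ratios of 0.86, 0.98 and 0.87 in the young arterial-, capillary- and venous-like cells and 0.80, 0.67 and 0.67 in the old ones.
In WT Cre, the zone sums of Per1, Mt1, Mt2 and Sgk1 differed in direction with age. Log2 ratios of old over young follow in the order capillary-, arterial- and venous-like. Per1 had 0.79, 0.30 and -0.73 in WT Cre and 0.30, 0.07 and -0.76 in the pair labelled EC-K4KO. Mt1 had 0.55, 0.13 and -0.60, and 0.42, -0.54 and -1.28. Mt2 had 0.15, -0.67 and -0.53, and -0.09, -1.33 and -1.36. For Sgk1 in WT Cre, the log2 ratio was 0.08 (0.02 to 0.14) in capillary-like cells, -0.31 (-0.42 to -0.21) in arterial-like cells and -1.58 (-1.84 to -1.32) in venous-like cells. In this pair the small positive capillary-like value was not seen within clusters, since in each of the 5 capillary-like clusters Sgk1 of the old WT Cre library was below that of the young one, at 236 against 243, 441 against 530, 376 against 459, 258 against 283 and 207 against 212 CPM. In the pair labelled EC-K4KO, Sgk1 was higher in the old library in 2 of the 5 clusters (230 and 239, 294 and 319 CPM, young first) and lower in the other 3. The first of the 5 is the Hmcn1-led cluster with the smaller share in old WT Cre. Summed over each zone, Sgk1 was at 333, 357, 353 and 381 CPM in capillary-like and 425, 261, 142 and 152 in venous-like cells. Zones were set by clustering these cells, and no test between zones was made.

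**Figure D3:**
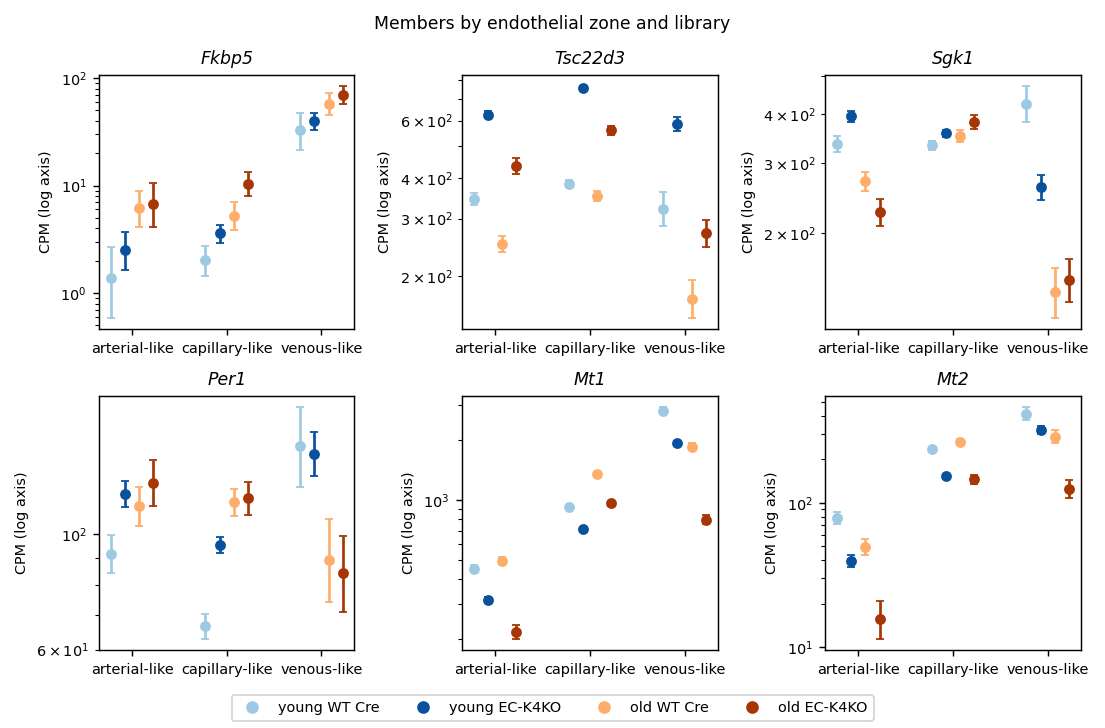
Level of each member (CPM, log axis) in arterial-, capillary- and venous-like endothelial cells, with 1 point per library and 95% Poisson intervals for counting error. Fkbp5 in venous-like cells (32.6 to 70.2) lies above the other zones in every library, and Mt1 and Mt2 are lowest in arterial-like cells.

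In smooth muscle-like cells, the contractile cells of the vessel wall, the metallothioneins rose with age and no member passed by label. The class held 320, 1150, 488 and 260 cells. Mt2 measured 125, 90.2, 238 and 329 CPM and Mt1 measured 2695, 2647, 4384 and 5681 CPM, and for both genes each old library was above both young ones. Mt2 rose by 1.43 on the log2 scale (SE 0.16, edgeR adjusted p = 3.26e-05) and Mt1 by 0.93 (SE 0.12, adjusted p = 1.99e-04). Fkbp5, at 2.33, 3.88, 8.33 and 11.1 CPM from only 7, 45, 27 and 17 UMIs, rose by 1.65 (SE 0.38, edgeR adjusted p = 0.0179). These are 3 of 6 members, beside 3.99% of the 10730 genes tested (2.4% higher and 1.59% lower).
By label, 0 of 6 members passed in the edgeR fit, beside 0.186% of genes, and 0 had an unadjusted p under 0.05. DESeq2 also called 0 of them. Sgk1 measured 74.6, 61.1, 47.2 and 70.1 CPM, and its log2 ratio by label was -0.29 (-0.51 to -0.07) for the young pair and 0.57 (0.20 to 0.94) for the old. Mt2 likewise had -0.47 (-0.64 to -0.30) for the young pair and 0.47 (0.30 to 0.63) for the old. Tsc22d3 stayed between 58.6 and 69.6 CPM and Per1 between 71.9 and 91.7.
After thinning, Mt2 was seen in 7.19%, 7.91%, 14.5% and 21.5% of smooth muscle-like cells (31.6%, 29.7%, 44.7% and 48.1% unthinned), so that the thinned shares of the young pair were not in the order of its CPM. Astrocyte markers, whose class holds the most Mt2 of those seen in every library, summed to 6.55 to 24.4 CPM in smooth muscle-like cells, with the lowest value in the library with the highest Mt2. Pericyte markers summed to 367, 393, 851 and 902 CPM and so moved with age as Mt1 and Mt2 did. Choroid plexus markers summed to 55.3, 14.7, 370 and 114 CPM, also higher in both old libraries, and endothelial markers to 611, 308, 138 and 139, lower in both. Pericyte-like cells themselves held 8.14 to 26.9 CPM of Mt2, below every smooth muscle-like value. Median UMIs per cell were 9154, 9370, 6370 and 5758.5, and median mitochondrial shares 6.60%, 6.57%, 5.40% and 5.63%, both lower in both old libraries. The part of these other cell types, of depth and of the mitochondrial share in the changes of the members with age was not tested.

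The change of Mt2 with age differed between the 2 vascular classes. In an edgeR fit over both classes with the library as a block, chosen after the values were seen, the change in smooth muscle-like cells exceeded that in endothelial-like cells by 1.44 on the log2 scale (SE 0.19, adjusted p = 2.84e-05). That was 1 of 6 members, beside 2.99% of 15004 genes, and with capillary-like clusters alone as the endothelial side the difference was 1.21 (adjusted p = 1.26e-05), beside 3.53% of 13982 genes. No member passed for the difference by label between these classes in the edgeR fit (Tsc22d3 -0.79, adjusted p = 0.0683, Mt2 0.72, adjusted p = 0.189), beside 0.16% of genes. With capillary-like clusters alone, 2 did, Tsc22d3 (-0.82, edgeR adjusted p = 0.0130) and Mt2 (0.73, adjusted p = 0.0395), beside 0.493% of genes.

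Microglia-like cells, the brain's resident macrophages, held 327, 574, 1187 and 587 cells and moved otherwise with age. Tsc22d3 measured 124, 150, 56.4 and 73.3 CPM and fell by 0.82 on the log2 scale (SE 0.11, edgeR adjusted p = 8.39e-09). Sgk1 measured 367, 348, 226 and 261 CPM and fell by 0.30 (SE 0.082, edgeR adjusted p = 0.00442). Both genes were lower in each old library than in each young one. The 7 endothelial markers within microglia-like cells summed to 401, 307, 86.4 and 137 CPM, also lower in both old libraries, and choroid plexus markers to 86.6, 24.6, 351 and 135. Median mitochondrial shares were 2.71%, 2.31%, 3.46% and 3.02%, higher in both old libraries. The part of these markers and of the mitochondrial share in these changes was not tested. Mt1 measured 322, 268, 359 and 352 CPM and rose by 0.54 (SE 0.081, edgeR adjusted p = 2.85e-07). Fkbp5, at 60.4, 81.4, 39.3 and 56.2 CPM, had a log2 change of -0.31 (edgeR adjusted p = 0.0708). It passed in 3 of 11 fits, with total UMIs (-0.58, edgeR adjusted p = 0.00128), at a mean of at least 10 CPM (-0.35, adjusted p = 0.0362) and with classes from each cell's own markers (-0.39, adjusted p = 0.0186). The 3 calls stand beside 25.3% of 10891 genes called with age in this class (14.9% higher and 10.5% lower). These fits are centred by TMM factors, whereas the median log2 ratio of CPM of all genes, old over young, was -0.28 in WT Cre and -0.27 in the pair labelled EC-K4KO. With total UMIs in place of TMM factors, 774 genes were called higher and 3133 lower, and the edgeR log2 change was 0.27 for Mt1 (adjusted p = 0.0128), -0.56 for Sgk1 (adjusted p = 2.20e-05) and -1.09 for Tsc22d3 (adjusted p = 4.76e-08).
The class was made of 2 clusters whose shares moved strongly with age. The cluster led by Ccl3, Tnf and other inflammatory genes held 21.4% and 17.4% of the microglia-like cells in the young and 70.8% and 67.5% in the old libraries. Without it, 0 of 6 members passed with age in edgeR, beside 6.13% of 9358 genes, and 1 had an unadjusted p under 0.05. Tsc22d3 was then at -0.26 (edgeR adjusted p = 0.372), Mt1 at 0.18 (adjusted p = 0.452) and Sgk1 at 0.24 (adjusted p = 0.165). Within the Ccl3-led cluster, Tsc22d3 measured 180, 162, 48.0 and 62.7 CPM, and in the other microglia-like cluster 103, 146, 83.8 and 104. Sgk1 measured 217, 265, 169 and 196 CPM in the first and 425, 375, 412 and 447 in the second, so that the first was lower in every library. Mt1 measured 455, 386, 384 and 391 CPM in the Ccl3-led cluster and 271, 231, 275 and 241 in the other, so it was higher in the Ccl3-led cluster in every library and overlapped between the ages within each cluster. Fkbp5 was also lower in the Ccl3-led cluster in every library, at 38.3, 63.4, 29.3 and 48.1 CPM against 68.9, 87.0, 71.9 and 79.4.
By label, 0 of 6 members passed in microglia-like cells in edgeR, beside 0.909% of genes, and 2 had an unadjusted p under 0.05. Fkbp5, the larger of these, had 0.46 (edgeR adjusted p = 0.0732), and it was the higher in the library labelled EC-K4KO at both ages. The other was Tsc22d3, at 0.31 (edgeR adjusted p = 0.276), which passed in 1 of 11 fits, with no doublet removed (0.53, adjusted p = 0.00331). After thinning, Fkbp5 was seen in 4.89%, 10.1%, 4.13% and 5.96% of microglia-like cells.

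The changes of Fkbp5 and Tsc22d3 in microglia-like cells differed from those in endothelial-like cells in fits over both classes, chosen after the values were seen. The change of Fkbp5 with age was lower by 2.15 in microglia-like cells (difference -2.15, SE 0.20, edgeR adjusted p = 3.35e-23), and without the Ccl3-led cluster the difference was -1.79 (adjusted p = 7.93e-11). For Tsc22d3 it was -0.50 (SE 0.15, edgeR adjusted p = 0.00840) with age and -0.54 (SE 0.15, adjusted p = 0.0211) with the label. Without the Ccl3-led cluster the Tsc22d3 differences were 0.03 (edgeR adjusted p = 1) and -0.46 (adjusted p = 0.407), and both calls were lost, beside 2.67% and 0.589% of genes. The calls are 2 of 6 members with age, beside 11.5% of 14669 genes, and 1 of 6 with the label, beside 1.38%. Set against smooth muscle-like cells, the change with age differed for 4 of 6 members, beside 6.83% of 12524 genes. Without the Ccl3-led cluster it did so for Fkbp5 alone (-1.54, SE 0.40, edgeR adjusted p = 0.0195), beside 0.802% of 11843 genes.

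**Figure D4:**
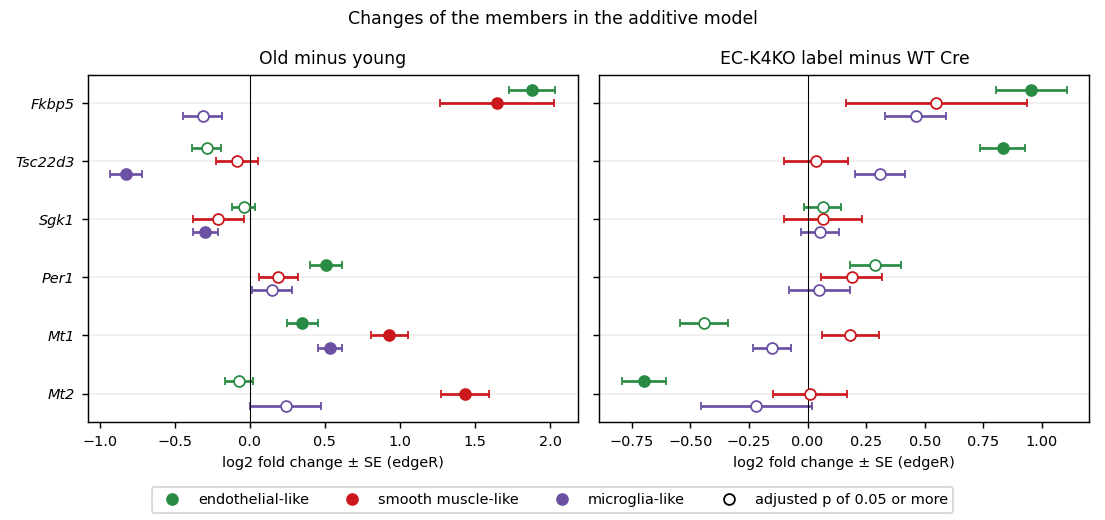
Log2 change of each member with age and with the EC-K4KO label in the additive edgeR model (± SE, 4 libraries), for endothelial-, smooth muscle- and microglia-like cells. Filled points have an adjusted p under 0.05. With age Fkbp5 is filled at 1.88 in endothelial- and 1.65 in smooth muscle-like cells and open at -0.31 in microglia-like cells, Mt2 is filled at 1.43 in smooth muscle-like cells, and with the label the 3 filled points are Tsc22d3 (0.83), Fkbp5 (0.96) and Mt2 (-0.70) in endothelial-like cells.

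The genes around the members in their pathways were followed as lists in endothelial-like cells, where 11% of all genes were called higher and 7.18% lower with age, and 0.875% and 0.7% with the label. The list counts are read beside those shares and were not tested as lists. The receptor gene Nr3c1, which is named for its role and not for its change, measured 269, 250, 210 and 216 CPM. Its log2 change was -0.13 with age (edgeR adjusted p = 0.247) and -0.00 with the label (adjusted p = 0.994). Of 11 tested receptor machinery genes, 5 rose with age and 0 fell, with a list median of 0.06 beside -0.02 over all genes tested. They included the chaperone genes Hspa8 (0.76), Hsp90aa1 (0.75) and Hsp90ab1 (0.47) and the HSP90 helper Stip1 (0.42). By label, 0 of 11 passed in edgeR and 2 had an unadjusted p under 0.05. The most abundant, Hsp90ab1 at 1969 to 2520 CPM and Hspa8 at 1167 to 2030, had log2 changes by label of 0.07 and 0.22.

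Of 23 tested genes on a list of other glucocorticoid targets, 13 rose and 1 fell with age (median 0.62), and 3 rose and 0 fell with the label (median 0.14, beside -0.00 over all genes tested). Zbtb16, a zinc finger repressor, measured 7.29, 12.4, 34.2 and 59.0 CPM, the same order over the libraries as Fkbp5. Zbtb16 rose by 2.39 with age (edgeR adjusted p = 1.29e-05) and by 0.80 with the label (adjusted p = 0.00750). Lcn2, an iron-siderophore-binding protein of acute inflammation, measured 38.5, 165, 236 and 606 CPM and rose by 2.37 with age (edgeR adjusted p = 8.13e-05) and by 1.75 with the label (adjusted p = 0.00285). Neutrophils also store LCN2 in their granules, and the 6 neutrophil markers summed to 7.29, 6.99, 10.1 and 149 CPM in endothelial-like cells, so they were high only in the library labelled old EC-K4KO. Their part in the Lcn2 value of that library was not tested. Cebpd, a transcription factor of the acute phase, measured 417, 554, 780 and 1195 CPM and rose by 0.54 with the label (edgeR adjusted p = 0.0253). Irs2 (1.54) and Bcl6 (1.32) rose and the stress-induced Sesn1 (-0.64) fell with age. Sesn1 is named because it was the only gene of the list that fell.

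Of 15 tested genes of metal handling, 4 rose and 3 fell with age (median 0.23), and 1 rose with the label (median 0.01). Fth1, the heavy chain of the iron store ferritin, rose by 0.74 with age, as did Gclc (0.69), an enzyme of glutathione synthesis, and the heme-degrading enzyme gene Hmox1 (0.46), while the iron exporter gene Slc40a1 fell by 0.66. Hmox1, at 11.3, 17.9, 14.5 and 21.8 CPM, was the gene that rose with the label (0.66, edgeR adjusted p = 0.0302), in the direction opposite to Mt2. Haemoglobin UMIs, as given above, were also higher in both libraries labelled EC-K4KO.

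Of 17 tested clock genes around Per1, 12 rose and 1 fell with age (median 0.53), beside 11% and 7.18% of all genes. Bhlhe41 (2.56), Per2 (1.64), Bhlhe40 (1.52) and Ciart (1.02), which all encode repressors of the clock, rose with age. Arntl, which encodes the clock activator BMAL1 and is named because it was the only one that fell, fell by 0.50. By label, 2 rose, Dbp (0.49, edgeR adjusted p = 0.0397) and Hlf (0.41, adjusted p = 0.0381), both transcription factor genes driven by the clock. The labels do not give the time of day at which the brains were taken, so age and time of day cannot be told apart here. Of the 15 dissociation response genes, 9 rose with age and 0 fell (median 0.63), led by Ier3 (2.07), Junb (0.98), Fosb (0.89) and Hspa1a (0.89). By label 0 of these 15 passed in edgeR, and 4 had an unadjusted p under 0.05. The most abundant, Junb and Jun, had log2 changes by label of 0.27 and 0.14.
In smooth muscle-like cells, where 2.4% of all genes were called higher and 1.59% lower with age, the list counts follow and no difference between the classes was tested. With age, 2 of 22 other glucocorticoid targets, 4 of 16 clock genes and 1 of 15 dissociation genes rose, and 0 of 11 receptor machinery genes and 0 of 13 metal handling genes did, while 0, 1, 1, 0 and 0 fell. Arntl fell there too, by 0.81 (edgeR adjusted p = 0.0345), and Dbp rose by 1.19 (adjusted p = 0.0125).

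**Figure D5:**
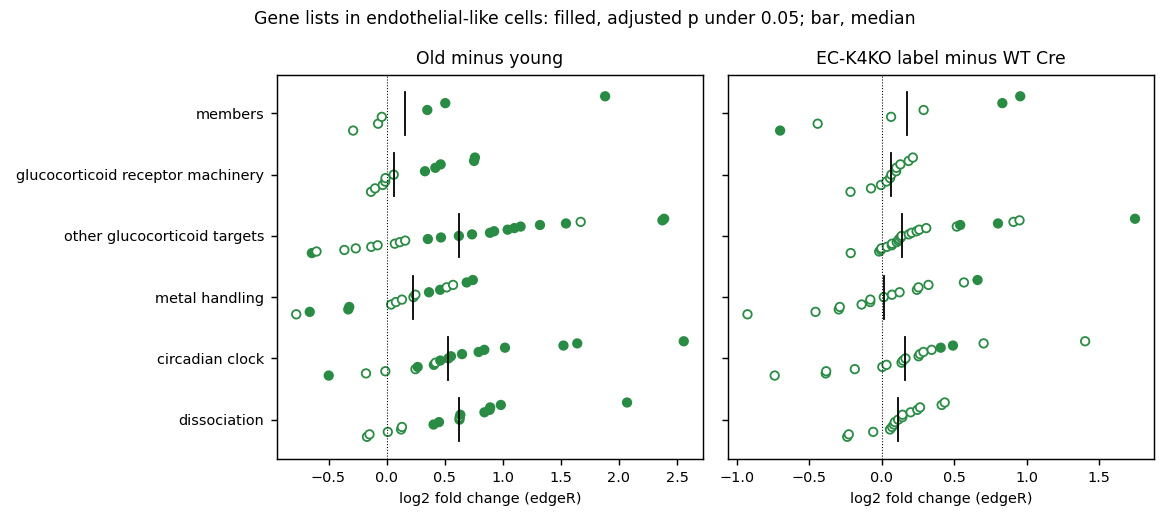
Log2 change with age and with the EC-K4KO label of every tested gene of the 6 lists in endothelial-like cells (edgeR, 4 libraries), with filled points for an adjusted p under 0.05 and a bar at each list's median. With age 12 of 17 clock genes, 13 of 23 other glucocorticoid targets and 9 of 15 dissociation genes are filled and above 0, and with the label 3, 2 and 1 genes of the target, clock and metal handling lists are.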

How the data were processed

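The 4 libraries (1 per group) were deposited as UMI counts per gene and cell barcode, unit counts, produced by the authors in Cell Ranger (version 6.0.2 in the file headers). The submitters' processing notes name Seurat and the builds mm10 and GRCm38. Intronic reads and the number of mice per library are not given in the sources used here. The members and all gene lists were chosen with earlier results of these data known.

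Cells with at least 500 genes, 1000 UMIs and at most 10% mitochondrial UMIs were kept, and the cells with the highest Scrublet scores were removed as doublets (0.8% per 1000 barcodes, 977 cells in all). Cells were clustered with scanpy 1.11.5 and leidenalg 0.10.2 on 2000 variable genes, 30 components and 20 neighbours at resolution 1, giving 32 clusters, of which 8 stayed unnamed. A cluster was named from a list of marker genes when at least 3 of them, and 50% of the list, were detected at 20 CPM or more and at 25% or more of the highest cluster. The members, the other gene lists, Klf4 and the mitochondrial genes were left out of the clustering. Classes still come from these same cells, so levels between classes carry no test.

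UMIs were summed per library and class. Levels are CPM with exact Poisson intervals, and shares have Clopper-Pearson intervals. Ratios of 2 libraries were taken after adding 0.5 UMIs to each count, and their exact conditional binomial intervals come from the counts without that addition. All intervals are at 95% and for counting error only. The background of a ratio is the share of genes of at least 5 CPM past 1.5-fold. For the additive test, edgeR 4.0.16 (R 4.3.3) fitted age and genotype label to the 4 sums of a class with the quasi-likelihood method, TMM factors and filterByExpr, adjusting over all genes tested by the Benjamini-Hochberg method with a threshold of 0.05. This leaves 1 residual degree of freedom for each gene, so the spread rests on sharing over genes, no interaction of age with label can be fitted, and p-values measure only the spread between these libraries, which may be technical. Differences between classes were fitted with the library as a block. That fit also leaves 1 residual degree of freedom for each gene, so its p-values too rest on sharing over genes. The script was tested on simulated data. DESeq2 1.42.0 and other filters, scalings, cell filters and class rules were alternatives.

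The text names the 6 members, Klf4, up to 4 genes with the largest change among those past the threshold in each list and factor in endothelial-like cells (the 2 most abundant where none passed), and the 3 genes most like each member, of which 1 is not reported here. Gene IDs were matched to GENCODE M21 by versioned ID (55094 of 55487). Promoter sequences are from RefSeq on GRCm38.p6. Classes with under 50 cells in a library were left out there. Numbers come from scipy 1.17.1 and numpy 2.4.6.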

Additional observations from a re-analysis of the deposited data

Results flagged for a closer look

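Sgk1 and Mt2 in smooth muscle-like cells stood out because the ratio of the library labelled EC-K4KO over its control pointed opposite ways at the 2 ages. For Sgk1 the log2 ratios were -0.29 in the young and 0.57 in the old pair, and for Mt2 they were -0.47 and 0.47. The difference between the ages was not tested, since each group has 1 library, and 260 to 1150 cells stand behind each value.

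The other results stood out because the change of a member differed between cell classes in an edgeR fit over both classes. With age, Mt2 changed by 1.44 more on the log2 scale in smooth muscle-like than in endothelial-like cells, and its change in microglia-like cells lay at -1.14 relative to smooth muscle-like cells (adjusted p = 1.18e-04). Fkbp5 in microglia-like cells lay at -2.15 relative to endothelial-like and at -1.95 relative to smooth muscle-like cells (adjusted p = 3.58e-05), and these were the 2 Fkbp5 differences that passed also without the Ccl3-led microglia cluster (edgeR adjusted p = 7.93e-11 and 0.0195). Tsc22d3 in microglia-like cells lay at -0.50 relative to endothelial-like and -0.73 relative to smooth muscle-like cells with age (edgeR adjusted p = 0.00112 for the latter), and at -0.54 relative to endothelial-like cells with the genotype label. Mt1 in microglia-like cells lay at -0.38 relative to smooth muscle-like cells (edgeR adjusted p = 0.0289). Without the Ccl3-led cluster, the microglia-like against smooth muscle-like differences of Mt2 (-1.37, edgeR adjusted p = 0.104), Mt1 (-0.73, adjusted p = 0.225) and Tsc22d3 (-0.16, adjusted p = 0.944) missed the threshold, where 0.802% of genes were called. For the microglia-like against smooth muscle-like fits with age, 4 of 6 members were called, beside 6.83% of 12524 genes.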

How the results depend on the processing

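Depth and design set the limits: each group had 1 library, Fkbp5 had 74 UMIs in the young WT Cre endothelial-like cells, and venous-like cells numbered 26 there. No replicate could be left out, since 3 libraries leave no residual degree of freedom for the additive model. No paired analysis was possible because the labels give every library the same replicate number, 1. The 6 members gave 363 results under alternatives, of which 306 kept direction and side of the threshold, 18 lost the call, 15 gained one and 24 changed sign. In endothelial-like cells, Tsc22d3 and Mt2 passed by label in 11 of 12 fits each, Fkbp5 in 7 of 11 and Mt1 in 6 of 12, and with age Fkbp5 passed in 10 of 11, Per1 in 11 of 12 and Mt1 in 7 of 12. All of these missed it without the other factor in the model (edgeR adjusted p of 0.0632 for Fkbp5 with age).

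Counts of genes called moved more. In endothelial-like cells the 2703 genes called with age became 4673 with total UMIs in place of TMM factors, 982 with DESeq2 and 826 without the other factor. With total UMIs the split was 1263 higher and 3410 lower, against 1637 and 1066, and the median log2 change of all genes fell to -0.16. The 234 called by label became 378 with total UMIs, 118 with DESeq2, 792 with no filter on low counts, 90 at a mean of at least 10 CPM, 126 with the stricter cell filter, 124 with no doublet removed, 546 with classes from each cell's own markers and 0 without the other factor (332 at an unadjusted p under 0.05). In smooth muscle-like cells the 428 called with age became 61 with DESeq2, 205 with the stricter cell filter and 781 with classes from each cell. The 20 called by label became 12 with DESeq2 size factors, 7 with DESeq2, 42 with no filter, 46 at 10 CPM, 34 with the stricter filter, 42 with classes from each cell and 0 without the other factor. In microglia-like cells the 2760 called with age became 650 with DESeq2, 881 with no doublet removed and 574 without the Ccl3-led cluster, the split with total UMIs was 774 higher and 3133 lower against 1620 and 1140, and the 99 by label became 13 with DESeq2, 64 without that cluster and 0 without the other factor. In the WT Cre pair, 2 members in place of 1 were past 1.5-fold old over young with cells weighted equally, with TMM scaling, with classes from each cell, without the Ackr1-led cluster and in capillary-like clusters alone; the cause was not tested.

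The values that changed sign were, in endothelial-like cells with age, Sgk1 at 0.047 without the Ackr1-led cluster and 0.23 in capillary-like clusters, and Mt2 at 0.18 in the latter. In smooth muscle-like cells they were Tsc22d3 at 0.0048 and Sgk1 at 0.062 with age and classes from each cell, and Mt2 at -0.012 by label with the stricter filter. In microglia-like cells with age they were Fkbp5 at 0.19 with no doublet removed and 0.10 without the Ccl3-led cluster, Sgk1 at 0.27 (edgeR adjusted p = 0.0493) and 0.24 in the same order, Per1 at -0.065 and -0.13, and at -0.12 with total UMIs and -0.030 with classes from each cell, and Mt2 at -0.026 with total UMIs and -0.0079 without the cluster. With no doublet removed the Ccl3-led cluster was not named, so it was not in the class. By label in microglia-like cells, with no doublet removed, with classes from each cell and without the Ccl3-led cluster, Sgk1 was at -0.028, -0.0047 and -0.046 and Per1 at -0.038, -0.063 and -0.019, and Mt2 was at 0.050 and 0.27 in the first 2.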

Other observations

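The lists around the members gave these counts with age in microglia-like cells, beside 25.3% of all genes called (14.9% higher and 10.5% lower), and were not tested as lists. Of 11 tested receptor machinery genes 6 rose and 1 fell, with Hspa8 at 0.69 and Hsp90ab1 at 0.59, and of 14 metal handling genes 5 rose and 2 fell, with Fth1 at 0.87, Hmox1 at 0.76 and Slc40a1 at -0.51. Of 16 other glucocorticoid targets 6 rose and 3 fell, and Zbtb16 and Lcn2, which rose with age in endothelial-like cells, were too low to be tested here, at no more than 1.05 and 3.49 CPM in any library. Of 15 clock genes 3 rose and 1 fell, and of 15 dissociation response genes 9 rose and 4 fell. Without the Ccl3-led cluster, the receptor machinery genes that rose numbered 2 of 10 and the metal handling genes 2 of 13, with 0 that fell in either list, while 3 dissociation response genes rose and 4 fell, 1 other glucocorticoid target rose and 1 fell, and 1 of 13 clock genes rose and 0 fell.

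By label in microglia-like cells, 5 of 15 dissociation response genes fell and 0 rose, Fosb by 0.41 (edgeR adjusted p = 0.00478) and Ier3 by 0.33 (adjusted p = 0.00417) among them, beside 0.634% of genes called lower. Without the Ccl3-led cluster 2 of 15 fell. Slc40a1 (0.48, edgeR adjusted p = 0.00959), the iron exporter gene, and the clock gene Bhlhe41 (0.45, adjusted p = 0.00839) rose, both calls that were lost without that cluster. Of 16 other glucocorticoid targets 3 fell and 0 rose by label in microglia-like cells, with Cdkn1a at -0.66, Nfkbia at -0.46 and Dusp1 at -0.38, and the counts were also 3 and 0 without the cluster. In endothelial-like cells 0 of the same 15 dissociation response genes were called by label, and the difference between the classes is given here for no gene of these lists. These genes were chosen after their values were seen.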
